A study of Mus musculus with 6 samples.

Results

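The genes described here encode the proteins that fill, dock, fuse and retrieve synaptic vesicles. They are 43 genes chosen by name, and they were read through every probe set that the platform annotation assigns to exactly 1 of them. That gave 109 of the 45101 probe sets of the array, of which 98 probe sets of 42 genes were bright enough to be tested. Each sample is total RNA from mouse hippocampus, read on its own 1-colour Affymetrix array. The 3 knockout (KO) samples came from mice that lack inhibitor-1, the product of Ppp1r1a, and the 3 wild-type (WT) samples from mice with the gene. Strain, sex, age, the targeting construct and the cells in which the gene was removed are not stated in the sources used here. Nor do the labels say that each array came from a separate animal, so the p-values rest on a spread between samples that could be technical.

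When an action potential opens calcium channels at a bouton, synaptotagmin senses the calcium and SNARE proteins of the vesicle and the plasma membrane zip together and fuse the membranes. Active zone scaffolds hold vesicles at the release site, and clathrin-dependent endocytosis then takes the membrane back. Inhibitor-1, once phosphorylated by protein kinase A, blocks protein phosphatase 1, and the hippocampus is a classic place to study how this phosphatase sets synaptic strength. The comparison asks whether transcripts of the release machinery differ when inhibitor-1 is missing.

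Ppp1r1a, the targeted gene, had an intensity of 272, 249 and 347 in KO and 9061, 8370 and 10345 in WT (log2 change -4.93, SE 0.18, limma adjusted p = 3.54e-07). Its KO values lay under the mean intensity of 361 below which the dimmest 40% of probe sets lie. The median intensity of an array was 542 to 666 in KO and 574 to 642 in WT, and replicate 1 had the lowest median of either group. For beta-actin, the signal of the 3' probe set over that of the 5' one, a sign of RNA integrity, was 1.18 to 1.21 in KO and 1.24 to 1.30 in WT, without overlap. For Gapdh the same ratio was 0.82 to 0.83 in KO and 0.81 to 0.88 in WT, with overlap. All 6 dentate granule, 6 CA3 and CA2 and 5 annotated CA1 neuron markers examined were bright enough to be tested.

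No member passed the threshold, a limma adjusted p under 0.05. Of 98 member probe sets, 0 were lower and 0 higher in KO (lowest adjusted p 0.986), where 0.0111% of the 26999 probe sets tested were lower and 0% higher. At an unadjusted p under 0.05, 10 member probe sets of 9 genes were lower and 0 were higher. The 10 are 10.2% of the member probe sets, beside 2.20% of all probe sets lower and 2.14% higher. The 10 belong to Vamp2, Bsn, Syp, Syngr1 (with 2 probe sets), Sh3gl2, Rab3c, Syt11, Dnm1 and Syn2. All 3 KO values lay below all 3 WT values for 15 member probe sets (15.3%, beside 4.91% of all) and above them for 0 (4.93% of all). The share below was similar in some other gene lists, at 15.5% for postsynaptic genes, 17.4% for neuron markers and 16.7% for interneuron markers. It was not confined to neuronal lists. For oligodendrocyte markers, 5 of 25 tested probe sets had all KO values below all WT values, a larger share than that of the members. The share was 9.66% for further presynaptic genes, 7.41% for astrocyte markers and 0% for dentate granule neuron markers. Whether the members differ from these lists in this share was not tested. In bulk tissue, fewer cells of a type and less RNA per cell cannot be told apart. The count of 10 depended on single arrays: it was 24 (24.5%, beside 4.45% of all) without KO replicate 1, 6 without KO replicate 2, 4 without KO replicate 3, and 6 without either WT replicate 1 or WT replicate 3. It was also 1 when arrays were scaled to their medians, 1 without an intensity trend in the variance, and 4 with the choroid plexus marker level of each array as a covariate.

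**Figure D1:**
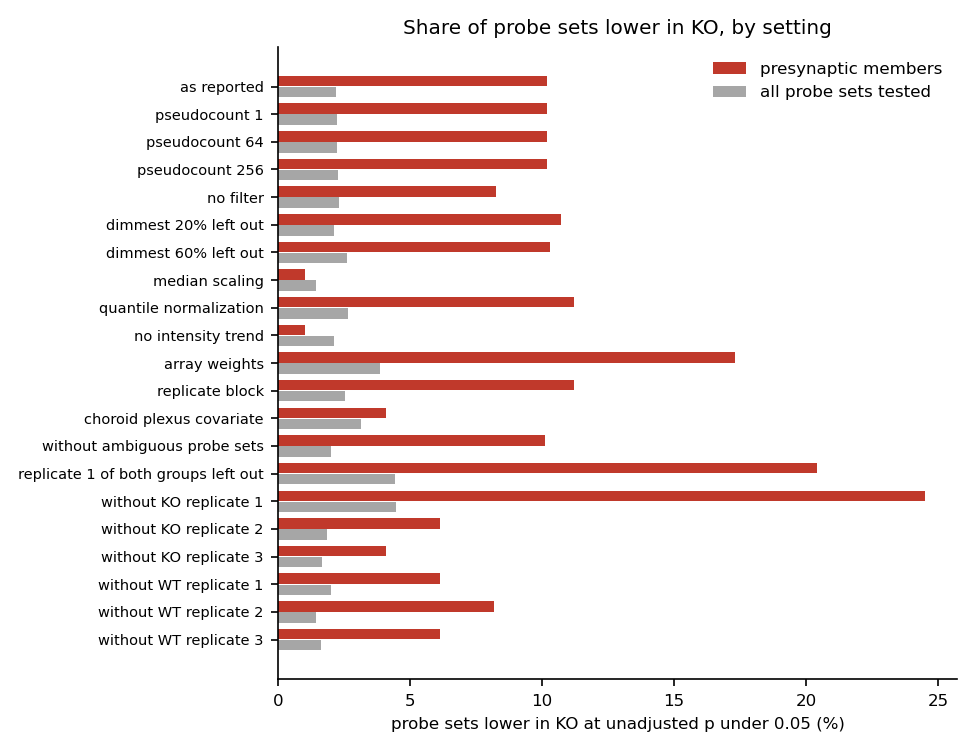
Share of probe sets (%) lower in KO at an unadjusted limma p under 0.05, for the 98 presynaptic member probe sets and for all probe sets tested, under each way of processing. The members' share runs from 1.02% with median scaling or without an intensity trend to 24.5% without KO replicate 1, and the share of all probe sets from 1.44% to 4.45%.

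The sizes were small. With each gene read by its leading probe set, the one with the highest mean intensity among those tested, 28 of 42 members (66.7%) had a change below 0, beside 49.8% of all 12477 genes. The median log2 change was -0.061, beside 0.0006 for all genes. It kept its sign under both other scalings, at -0.084 with median scaling, where the median of all genes was -0.023, and at -0.033 with quantile normalization. It was -0.114 without KO replicate 1, -0.012 without KO replicate 2 and -0.035 without WT replicate 3. For 40 of the 42 leading probe sets the 95% interval of the change lay within 1.5-fold in both directions (0.58 on the log2 scale). The exceptions, Syt2 and Doc2a, had the lowest mean intensities of the members' leading probe sets, though above the array medians. Their intervals allowed a 1.5-fold higher but not a 1.5-fold lower level in KO. Of the members' probe sets, 78 lie among the 9000 brightest of those tested, and there 59 of the 78 had a change below 0, beside 52.4% of all. The 10 with an unadjusted p under 0.05 all lie among them, where 3.26% of probe sets were lower and 2.78% higher by that rule.

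**Figure D2:**
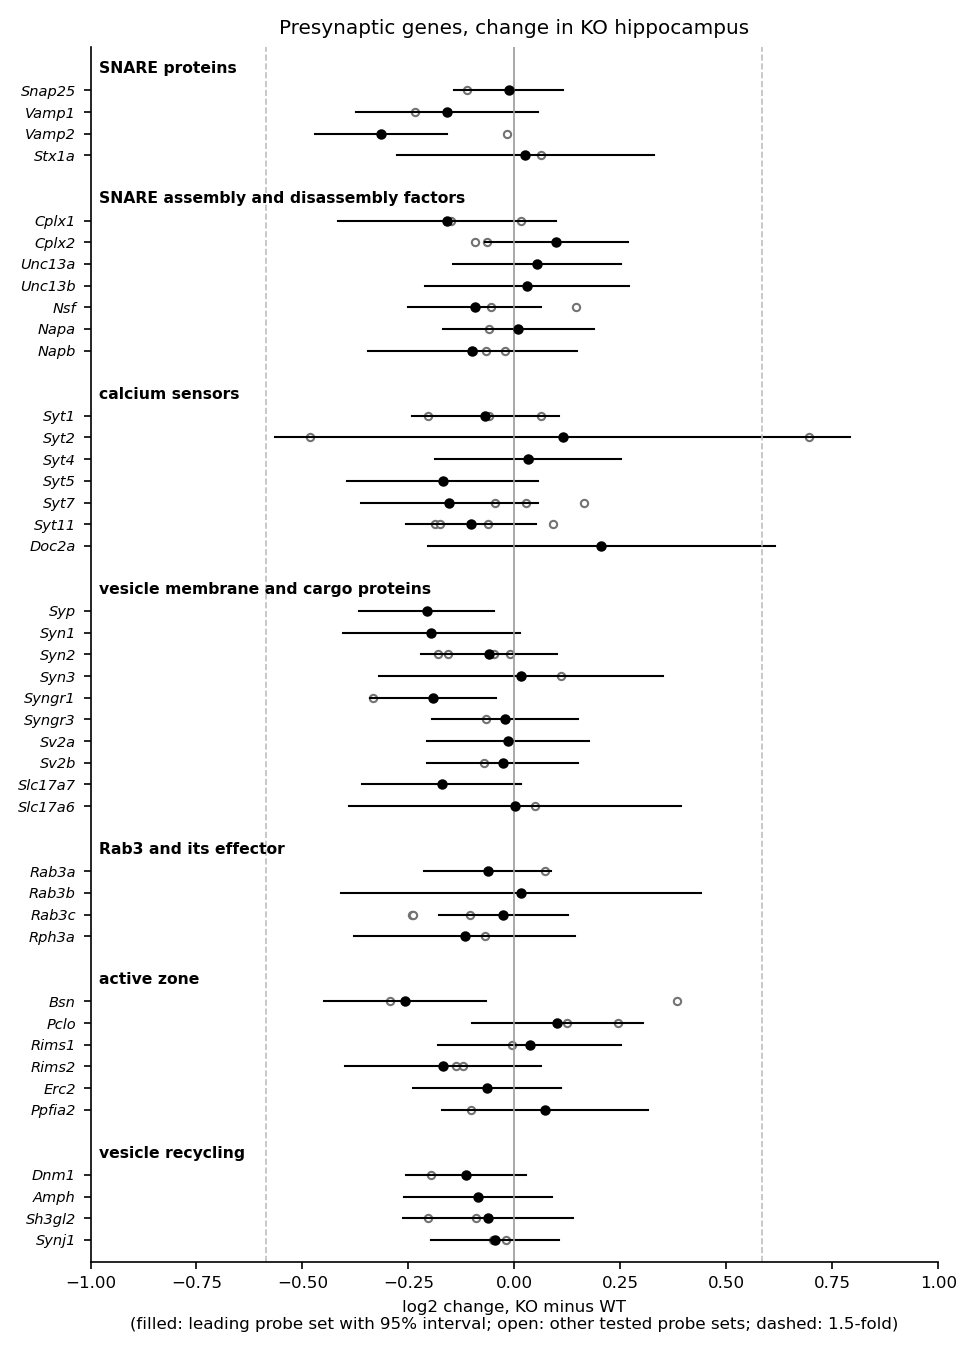
Log2 change (KO minus WT, x axis) of the 42 tested members, grouped by role. Filled points with bars are the leading probe set and its 95% interval from the limma fit (3 KO and 3 WT arrays), open points the other tested probe sets, and dashed lines a 1.5-fold change. Leading changes run from -0.31 (Vamp2) to 0.21 (Doc2a), and only the bars of Vamp2, Bsn, Syp and Syngr1 leave out 0.

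Among the SNARE proteins, Vamp2 had the smallest p of all members. Vamp2 encodes synaptobrevin 2, the main vesicle SNARE of the forebrain. At probe set 1420833_at its intensity was 22303, 22032 and 21247 in KO, against 29146, 26815 and 25696 in WT. The groups did not overlap, and the log2 change was -0.31 (SE 0.071, 95% interval -0.47 to -0.16, limma adjusted p = 0.986). Leaving out any 1 array kept it between -0.35 and -0.26. Its other probe set, 1420834_at, read 23097, 25010 and 24465 in KO and 26847, 22558 and 24177 in WT. There the groups overlapped and the log2 change was -0.017 (SE 0.079). The log2 ratio of the first probe set to the second was -0.050, -0.18 and -0.20 in KO and 0.12, 0.25 and 0.088 in WT. The difference between the groups in this ratio was -0.30. The pair was compared because the first probe set had the smallest p of all members, so the same arrays cannot test it. Snap25, the plasma membrane SNARE that supplies a pair of helices to the fusion complex, read 112970, 107424 and 114429 in KO and 109091, 116510 and 112465 in WT. Its groups overlapped, and the log2 change was -0.014 (95% interval -0.14 to 0.11). Vamp1, a second synaptobrevin, had a change of -0.16 (95% interval -0.37 to 0.055). Stx1a, syntaxin 1A of the plasma membrane, had one of 0.026, with KO replicate 1 at 25481 above the other 5 arrays (16871 to 20075).

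The 7 factors that assemble or take apart SNARE complexes gave 0 of 18 tested probe sets at an unadjusted p under 0.05. Beside this, 2.20% of all probe sets were lower and 2.14% higher, so a count of 0 of 18 does not set this role apart. Of the leading changes, 3 of 7 were below 0, beside 49.8% of all genes. Cplx1 had the smallest p of these factors. It encodes complexin 1, a small protein that clamps and then aids the assembled complex. It read 76377, 57805 and 52411 in KO and 65835, 66128 and 74094 in WT. KO replicate 1 was the highest of the 6 arrays and the other 2 KO arrays were the lowest, and the log2 change was -0.16 (SE 0.12). Of its other probe sets, 1417747_at had KO values of 20778 to 23959 below WT values of 24178 to 24648 (log2 change -0.15), and 1417746_at had a change of 0.015. Cplx2, complexin 2, had changes of 0.099, -0.093 and -0.066. Unc13a and Unc13b, the Munc13 proteins that prime vesicles, had changes of 0.053 and 0.029. Nsf, the ATPase that separates spent SNARE complexes, had one of -0.094 at its leading probe set. Its adaptors Napa and Napb, alpha- and beta-SNAP, had changes of 0.0087 and -0.099.

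The calcium sensors differed in how well they were measured. Syt1, the sensor of fast synchronous release in the forebrain, read 110584, 94406 and 101358 in KO and 112426, 96688 and 112210 in WT. The groups overlapped and the log2 change was -0.068 (95% interval -0.24 to 0.11). Syt5 had the smallest p of the leading probe sets in this group. It read 6702, 5637 and 7125 in KO and 7399, 7128 and 7264 in WT, without overlap by a margin of 3 intensity units, and the change was -0.17 (SE 0.10). Syt11, a synaptotagmin that does not bind calcium in the usual way, gave 5 tested probe sets, 4 with a change below 0. One of them, 1429315_at, read 22394, 20151 and 20027 in KO and 22429, 23432 and 25345 in WT. KO replicate 1 and WT replicate 1 were 35 units apart there, and the log2 change was -0.19 (SE 0.077). Its leading probe set had a change of -0.10, and 1455176_a_at one of 0.092. Syt7, the slow high-affinity sensor, had changes of -0.15, 0.028, 0.16 and -0.045 at its 4 probe sets. Syt4, another member that lacks usual calcium binding, had changes of 0.032 and 0.034. Syt2, the fast sensor of the hindbrain, was dim, and its 3 probe sets ran from -0.48 to 0.70 with standard errors of 0.31 to 0.88. Doc2a, linked to spontaneous and asynchronous release, had a change of 0.21 (SE 0.19).

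Proteins of the vesicle membrane and its cargo gave 4 of the 10 probe sets at an unadjusted p under 0.05, which is 20% of their 20 tested probe sets, beside 2.20% of all. That count was 0 of 20 with median scaling, 0 of 20 with the choroid plexus covariate and 6 of 20 without KO replicate 1. In the fit as reported, 8 of 10 tested genes had a leading change below 0, beside 49.8% of all genes. Syp encodes synaptophysin, the most used marker of synaptic vesicles. It read 40689, 37430 and 36050 in KO and 46832, 41481 and 43498 in WT. The groups did not overlap, and the log2 change was -0.21 (SE 0.072). Syngr1, synaptogyrin 1, is a vesicle membrane protein related to synaptophysin. Its leading probe set read 21332, 20759 and 20297 in KO and 24704, 23821 and 22753 in WT, and its other tested one 7111, 5208 and 6622 in KO and 8730, 7246 and 7753 in WT. At both, all KO values were below all WT values, with log2 changes of -0.19 (SE 0.067) and -0.33 (SE 0.12). Syngr1 and Rims2 are the 2 members on chromosome 15, which also carries Ppp1r1a. Syngr3, its paralog, had changes of -0.022 and -0.066.

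The synapsins tether vesicles to each other and to actin and release them when phosphorylated. Syn1 read 38583, 30672 and 29866 in KO and 39620, 36502 and 36736 in WT. KO replicate 1 lay among the WT arrays and the other 2 KO arrays below them, with a log2 change of -0.20 (SE 0.095). Syn2 had 5 tested probe sets, all with a change below 0, from -0.18 to -0.0096. At 1428460_at it read 27787, 23381 and 27331 in KO and 28350, 29083 and 31363 in WT, without overlap (change -0.18, SE 0.082). Its leading probe set overlapped between groups and had a change of -0.059. Syn3 had changes of 0.015, 0.016 and 0.11. Slc17a7, the vesicular glutamate transporter VGLUT1 of hippocampal pyramidal and granule neurons, read 24446, 23074 and 20166 in KO and 26713, 23636 and 25748 in WT. The groups overlapped through KO replicate 1, and the change was -0.17 (SE 0.085). Slc17a6, the transporter VGLUT2 of subcortical inputs, had changes of 0.00074 and 0.048. Sv2a and Sv2b, vesicle glycoproteins, had leading changes of -0.016 and -0.028. Sv2c was under the intensity filter, at 144, 34 and 160 in KO and 51, 153 and 29 in WT, and was not tested.

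The promoters of the members were read because CREB, which protein kinase A phosphorylates and protein phosphatase 1 dephosphorylates, binds the cAMP response element. RefSeq promoters of GRCm38.p6 were held for 34 of the 43 members, 45 in all, and the 250 bases before each start were searched on both strands. The full element TGACGTCA stood in 2 of the 45 (4.44%, beside 1.55% of all 32851 promoters) and its core TGACG, which every full element holds, in 10 (22.2%, beside 17.8%). The GC box GGGCGG, a general promoter motif, stood in 26 (57.8%, beside 32.7%). The 9 letters TTCAGCACC, the left part of the site of the neuronal repressor REST, stood in 1 (2.22%, beside 0.301%). The 2 promoters with the full element, those of Syn1 and of the endocytic gene Sh3gl2, are shown because they carry it, with capitals marking TGACGTCA and, in Syn1, also TTCAGCACC. A match is a description of letters and not of binding. They are read 5′ to 3′ on the gene's strand, the minus strand at chrX:20920919-20921168 for Syn1 and the plus strand at chr4:85205206-85205455 for Sh3gl2.
Syn1: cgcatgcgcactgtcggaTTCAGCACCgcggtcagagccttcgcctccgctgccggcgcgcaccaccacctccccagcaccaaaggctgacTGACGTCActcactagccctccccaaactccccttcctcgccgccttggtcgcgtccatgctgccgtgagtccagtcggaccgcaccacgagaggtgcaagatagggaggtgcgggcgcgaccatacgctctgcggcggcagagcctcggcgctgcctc
Sh3gl2: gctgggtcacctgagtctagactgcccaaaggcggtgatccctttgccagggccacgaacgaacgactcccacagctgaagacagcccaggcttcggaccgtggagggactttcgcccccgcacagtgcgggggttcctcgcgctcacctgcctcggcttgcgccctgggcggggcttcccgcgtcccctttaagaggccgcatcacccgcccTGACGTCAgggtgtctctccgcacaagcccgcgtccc
The element lies 159 bases before the start in Syn1 and 37 before it in Sh3gl2, counted from its first base. Neither gene passed the test.

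Rab3 proteins are the small GTPases of the vesicle surface. Rab3a, the most studied of them, had changes of -0.064 and 0.072, and Rab3b one of 0.016. Rab3c had 4 tested probe sets, all with a change below 0. At 1449494_at it read 7761, 6857 and 8083 in KO and 8254, 8872 and 9740 in WT, without overlap (log2 change -0.24, SE 0.098). Its leading probe set read 30709, 28892 and 29338 in KO and 28929, 29399 and 32301 in WT, with overlap and a change of -0.026. Rph3a, the Rab3 effector rabphilin, had the smallest p of the leading probe sets in this group. It read 15435, 12339 and 10989 in KO and 15272, 12934 and 13540 in WT, and the change was -0.12 (SE 0.12). KO replicate 1 was again at the top of its group.

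In the active zone, Bsn and Pclo went different ways in value. Bsn encodes bassoon and Pclo piccolo, a pair of very large related scaffolds. Bsn read 12533, 11781 and 10718 in KO and 14798, 12995 and 14099 in WT at its leading probe set. The groups did not overlap, and the log2 change was -0.26 (SE 0.087, 95% interval -0.45 to -0.068). Its second probe set had a change of -0.29 (SE 0.16), and the remaining dim one 0.38 (SE 0.38). Pclo read 26656, 26356 and 24668 in KO and 21633, 23297 and 27845 in WT, with overlap, and its 3 changes were 0.10, 0.24 and 0.12. The difference between the 2 genes was not tested. Rims2, which links Rab3 to calcium channels and Munc13, had 3 probe sets between -0.17 and -0.12, and its paralog Rims1 had changes of 0.036 and -0.0063. Erc2, the scaffold CAST, had a change of -0.065, and Ppfia2, liprin-alpha 2, changes of 0.072 and -0.10.

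All 4 vesicle recycling genes had a leading change below 0, and all 9 of their tested probe sets did. Dnm1, the neuronal dynamin that pinches vesicles from the membrane, read 85211, 80726 and 80620 in KO and 87975, 84117 and 95121 in WT at its leading probe set. KO replicate 1 lay above WT replicate 2, and the log2 change was -0.11 (SE 0.064). At 1427754_a_at Dnm1 read 29473, 25069 and 24019 in KO and 31153, 28698 and 29871 in WT, again with overlap through KO replicate 1 (change -0.20, SE 0.084). Sh3gl2, endophilin A1, which bends the neck of the budding vesicle, read 13208, 11942 and 12228 in KO and 13428, 14841 and 14803 in WT at 1449228_at. The groups did not overlap there (change -0.20, SE 0.079). At its leading probe set it read 41519, 33365 and 32318 in KO and 35995, 36991 and 38249 in WT, where KO replicate 1 was the highest array and the other 2 KO arrays were the lowest (change -0.062). Synj1, the lipid phosphatase that uncoats vesicles, had 3 changes between -0.050 and -0.019. Amph, amphiphysin, had one of -0.087.

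**Figure D3:**
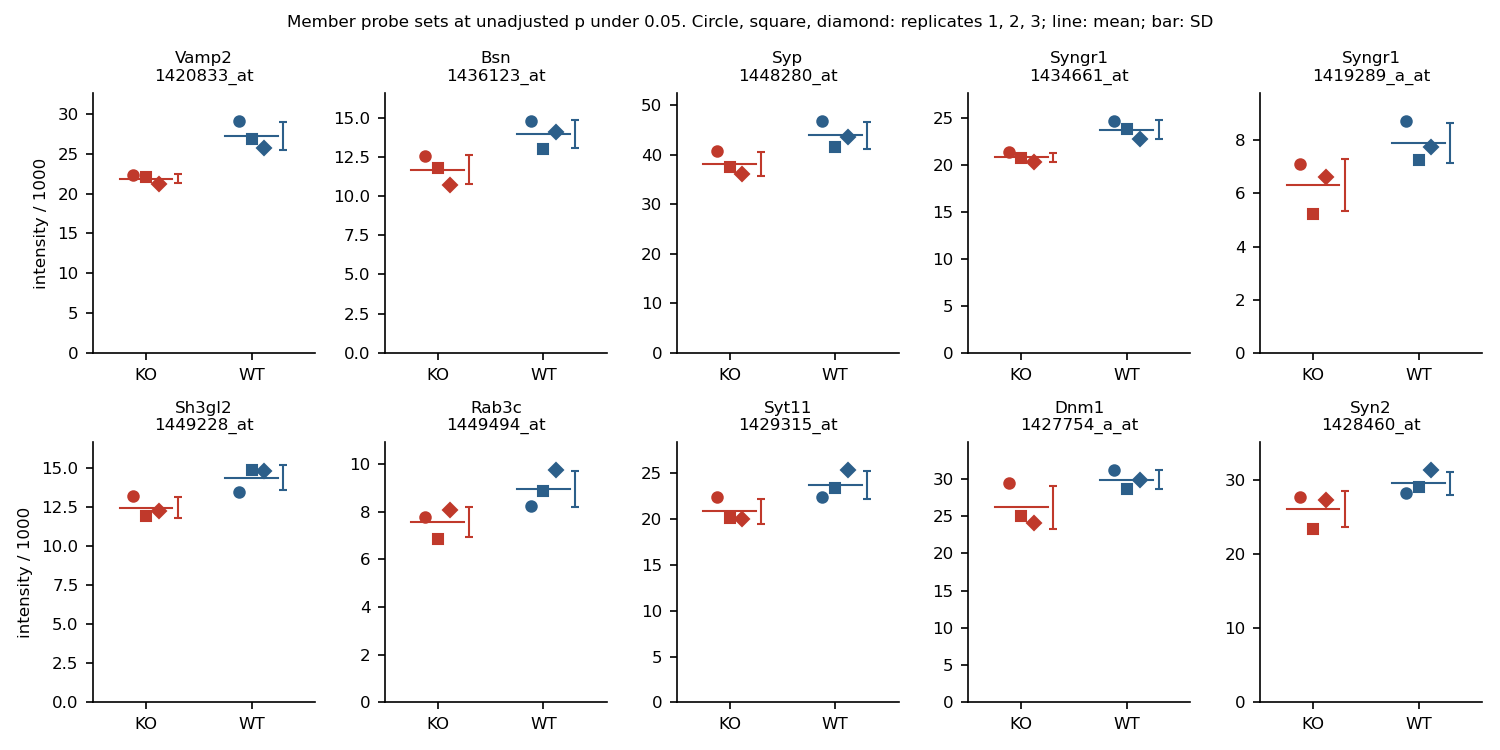
Intensity divided by 1000 (y axis from 0) of the 10 member probe sets with an unadjusted limma p under 0.05, ordered by p. Points are single arrays (KO left, WT right), lines means and bars SD (n = 3 each). The groups do not overlap in 9 of the 10, and Dnm1 is the one in which they do.

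Probe sets of 1 gene shared direction only in part. Of 31 members with 2 or more tested probe sets, 14 had all changes below 0, 5 had all above 0 and 12 had both signs. The 5 with all changes above 0 were Stx1a, Syt4, Syn3, Slc17a6 and Pclo. The position of each probe set along its transcript was not used here.

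Many of these small values rested on single arrays. Of the 21 member probe sets for which values without each array were computed, 13 moved by over 1.5 times or turned sign when 1 array was left out, and 8 did not. The 8 were those of Vamp2, Bsn, Syp, Sh3gl2 (1449228_at), Rab3c (1449494_at), Syt11 (1429315_at), Dnm1 (1427754_a_at) and the leading one of Syngr1. All 8 had an unadjusted limma p under 0.05 on the same arrays, a rule by which part of the 21 were picked. That rule favours changes that are large for their spread, so the split partly restates it. Of the 10 probe sets at an unadjusted p under 0.05, the other 2 moved through KO replicate 2: without it the second Syngr1 probe set had a change of -0.20 and Syn2 1428460_at one of -0.10. The change of Syt5 was -0.072 without KO replicate 2, and that of Slc17a7 was -0.093 without KO replicate 3. Cplx1 ran from -0.32 without KO replicate 1 to -0.046 without KO replicate 3, and Rph3a from -0.25 to -0.0084 without the same arrays. The leading changes of Sh3gl2 (-0.17 to 0.0059), Rab3c (-0.056 to 0.023) and Snap25 (-0.037 to 0.013) turned sign. Those of Syt1 (-0.14 to -0.013), Syn2 (-0.10 to -0.0080), Dnm1 (-0.15 to -0.066) and Syt11 (-0.14 to -0.056) stayed below 0.

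The arrays of the KO group were not alike for these genes. Averaged over the 42 leading probe sets and centred on the 6 arrays, the members' log2 level was 0.074, -0.095 and -0.066 in KO replicates 1 to 3 and 0.059, -0.014 and 0.041 in WT. KO replicate 1 thus had the highest level of all 6 arrays, and the other 2 KO arrays the lowest. It was the highest of the KO arrays for 33 of 42 members, and it lay above the WT mean for 23 of 42, beside 6 for KO replicate 2 and 11 for KO replicate 3. By role, the vesicle membrane and cargo group was the one of 7 in which the KO levels (-0.083 to 0.0059) did not overlap the WT levels (0.012 to 0.084). Of all single probe sets tested, 4.91% had all KO values below all WT values and 4.93% had them above. A separation in 1 of 7 roles was not tested, and no difference between roles was tested.

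The levels of other cell types are given on the same scale. Choroid plexus markers were at -0.21, 0.59 and 0.44 in KO and -1.004, 0.072 and 0.11 in WT, with 8 of 9 leading changes above 0. Meningeal and fibroblast markers were at -0.18, 0.44 and 0.26 in KO and -0.25, -0.018 and -0.26 in WT, with 10 of 10 above 0. The KO array with the highest presynaptic level was thus the KO array with the lowest level of both lists. In WT, replicate 1 had the highest presynaptic and lowest choroid plexus level, but replicate 3 had the lowest meningeal level. WT replicate 3 was also above WT replicate 2 in both the presynaptic level (0.041 and -0.014) and the choroid plexus level (0.11 and 0.072). Every marker had an intensity above 0 on every array. With the choroid plexus level as a covariate, 4 of 98 member probe sets (4.08%) were lower at an unadjusted p under 0.05, beside 3.12% of all. The median change was then -0.037. Neuron markers were at 0.027, -0.091 and -0.076 in KO and 0.042, 0.048 and 0.050 in WT, without overlap, and 9 of 12 had a change below 0, with Elavl3, an RNA-binding protein of neurons, at -0.26. Oligodendrocyte markers were at -0.090, -0.11 and 0.038 in KO and 0.12, 0.025 and 0.012 in WT, with 8 of 11 below 0. The KO minus WT difference in level was -0.058 for the members and -0.094 for the neuron markers. It was 0.070 for dentate granule, 0.038 for CA1, -0.081 for CA3 and CA2 and -0.053 for interneuron markers. For astrocyte, microglia and endothelial and mural markers it was 0.015, 0.040 and 0.16, and for neocortex and striatum markers -0.011 and 0.043. The part that a shift in cell types, the actin 3' over 5' ratio or the low median of replicate 1 plays in the members' values was not tested. The fit with the covariate does not measure it, since the choroid plexus level was itself 0.55 higher in KO on average.

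**Figure D4:**
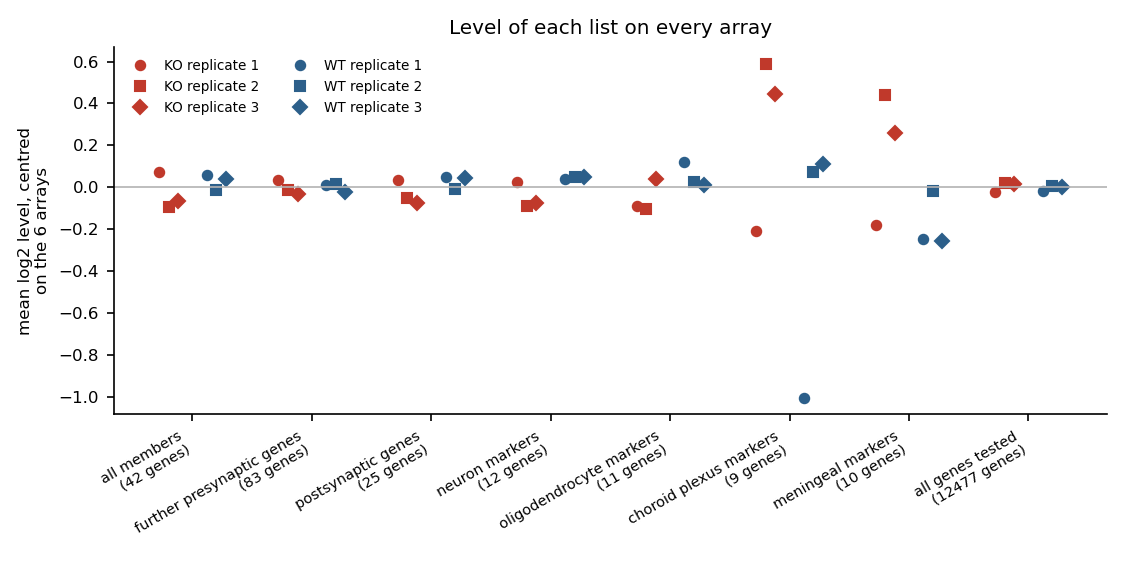
Mean log2 level of each list on every array, centred on the 6 arrays (y axis), from 1 leading probe set a gene. KO arrays stand left of WT arrays, and symbols mark the replicate number. For the presynaptic members KO replicate 1 is at 0.074 and the other 2 KO arrays at -0.095 and -0.066, while for choroid plexus markers KO replicate 1 is the lowest KO array.

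Other genes of the release pathway were read from a list of 92, of which 83 were tested with 207 probe sets. None was called by limma (0 lower and 0 higher after adjustment). Without adjustment, at a p under 0.05, 6 probe sets were lower and 6 higher, and 2.90% lower stands beside 2.20% of all. Of 83 leading changes 49 were below 0, and their median was -0.021. By leading probe set, 4 of these genes were higher in value at that unadjusted p. They were Itsn2, the endocytic scaffold intersectin 2 (log2 change 0.38), Vamp7 (0.38) and Vamp8 (0.43), SNAREs of late endosomes and other non-synaptic vesicles, and Ptprd (0.19), a receptor phosphatase of presynaptic adhesion. Another 3 were lower in value, Bin1, an amphiphysin relative (-0.21), Git1, a presynaptic scaffold and Arf regulator (-0.22), and Syt12 (-0.34). Other probe sets of Ptprd included changes of -0.18 and 0.18, and another of Bin1 had one of 0.0032. For Itsn2 they included 0.023 and 0.32, and for Vamp7 0.17. The rest at that unadjusted p were not leading ones. They were higher for Rab27b (0.40, beside 0.096 at its leading probe set) and Stxbp5l (0.31). They were lower for Atp6v0a1 (-0.22), Rims4 (-0.59) and Scamp5 (-0.26). Itsn2 read 5305, 5947 and 4506 in KO and 4062, 3960 and 3959 in WT, and Vamp7 read 6844, 7687 and 8946 in KO and 6314, 6346 and 5357 in WT, both without overlap. Across the cleft, 25 postsynaptic scaffold and adhesion genes had 18 leading changes below 0 and a median of -0.033, and 5 of their 71 probe sets were lower and 3 higher at an unadjusted p under 0.05 (7.04% lower, beside 2.20% of all). The count lower was 0 with median scaling and 10 without KO replicate 1. Camk2a, the alpha subunit of the postsynaptic kinase CaMKII, had a change of -0.17, and Homer3 one of -0.35. On the arrays the postsynaptic level was 0.037, -0.050 and -0.076 in KO and 0.049, -0.0069 and 0.047 in WT, with KO replicate 1 again the highest of its group. Whether the presynaptic members differ from these lists was not tested.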

How the data were processed

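The authors deposited a linear intensity for each probe set; their software is not stated in the sources used here. All intensities lay above 0. Each of the 6 arrays had a mean of 2500 once 2% of its values were trimmed from either end, so the authors' values were already scaled to one level, with no centring of probe sets. Values were analysed as log2(intensity + 16), so a fold change is on that scale. The 64 control probe sets and the 40% with the lowest mean were left out. KO was compared with WT by limma 3.58.1 in R 4.3.3 (two-sided, with genotype alone in the model, an intensity trend in the empirical Bayes step, and Benjamini-Hochberg adjustment over 26999 probe sets). Tested on simulated data with either of a pair of noise models, the fit returned the sizes put in with little bias. It called only a minority of the smallest ones and, under both models, missed part of the largest, 2 on the log2 scale. A preset share of the largest to be called was not reached under one model, and that requirement was dropped. A count of 0 calls therefore does not show that changes are absent. The platform annotation gave 1 symbol to 34958 probe sets, several to 932 and none to 9211, and 34754 were found by gene ID in RefSeq GRCm38.p6, used for names, chromosomes and promoters. Probe sets with several symbols name no gene here. The members and lists were chosen with earlier results of these data known. Of the listed genes, 9 of the further presynaptic and 3 of the postsynaptic ones were not analysed here, 3 and 1 of them because their probe sets lay under the filter. Values on every array are given for members with a probe set at an unadjusted p under 0.05, the member of smallest p in each role, and Snap25, Syt1, Syp, Slc17a7, Bsn and Dnm1; values of Pclo, Syn1, Stx1a and Sv2c were added after they were seen. The alternatives were pseudocounts of 1, 64 and 256, no filter or one of 20% or 60%, other scalings, no intensity trend, array weights, a replicate block, a choroid plexus covariate, arrays left out, and other rules for a gene's probe sets. The number of arrays limits the precision.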

Additional observations from a re-analysis of the deposited data

How the results depend on the processing

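No member and no further presynaptic probe set was called under any of the 20 alternative fits, and Ppp1r1a was lower and called in all of them (log2 change -5.06 to -4.84 leaving out 1 array). The number of member probe sets lower at an unadjusted p under 0.05, 10 as reported, was 1 with median scaling, 1 without an intensity trend, 17 with array weights, 4 with the choroid plexus covariate and 20 without replicate 1 of both groups. It ran from 4 (without KO replicate 3) to 24 (without KO replicate 1) leaving out 1 array. The number higher, 0 as reported, was 1 with quantile normalization, 1 with the covariate and 2 without replicate 1 of both groups, and ran from 0 to 1 leaving out 1 array. The median change was -0.104 without replicate 1 of both groups and -0.028 without probe sets of ambiguous suffix. No label pairs samples of the same number, whose deviations from their group means correlated at 0.23, 0.051 and 0.088. In the fit with a replicate block, 11.2% of member probe sets were lower at that p and the lowest member adjusted p was 0.458. Of 416 comparisons of named members' probe sets, 8 turned sign. None crossed the threshold, which says nothing about stability, since none started near it. The cause of each change was not tested. The standard error limits dim members most, with a median of 0.097 over the 9000 brightest and 0.175 over all probe sets.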

Other observations

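Thalamus and habenula markers, which mark tissue beside the hippocampus, had levels of -0.15, -0.087 and -0.079 in KO and 0.040, 0.15 and 0.13 in WT, without overlap, on the scale used for the presynaptic members. Of 6 genes 5 had a change below 0, with Tcf7l2, a transcription factor of thalamic neurons, at -0.51. Of their 16 tested probe sets 10 had a change below 0, and 0 had an unadjusted limma p under 0.05 in either direction. Slc17a6, the vesicular glutamate transporter that thalamic neurons use, had a change of 0.00074 (95% interval -0.39 to 0.39) at its leading probe set.

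The 11 member probe sets under the intensity filter were not tested. Among them 1449798_at of Rab3c read 21, 5 and 12 in KO and 52, 43 and 55 in WT, without overlap. Also without overlap, 1443308_at of Unc13b read 135, 150 and 93 in KO and 394, 177 and 306 in WT. Both are named because of these values. Their means lay under the filter level of 361. Of the probe sets tested, 4.91% had all KO below all WT, and the share under the filter was not computed.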
